A study of Mus musculus with 6 samples.

Results

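The Hox genes are the homeobox transcription factor genes of the 4 mouse Hox clusters, HoxA, HoxB, HoxC and HoxD. They were taken here as every gene whose symbol is Hox followed by the letter of a cluster and a paralogue number, and 36 such genes were measured among 22180 genes tested. The platform annotation holds 38 Hox symbols, of which Hoxa11 and Hoxd4 stand only on probe sets shared with other symbols and were not measured on their own. No measured value was used to choose them. The genes were compared between whole inguinal mammary glands in 3 stromal knockout samples, labelled Dermo1Cre/Mt1-mmp(fl/fl), and 3 wild-type samples, labelled Mt1-mmp(+/+). All 6 came from C57BL/6J mice of 4 weeks, no treatment is named, and each sample gave 1 array. The labels call them biological replicates and do not say how many mice stand behind each. Mt1-mmp is the older name of Mmp14, the gene of a membrane-anchored matrix metalloproteinase, and Dermo1-Cre, driven from the locus now named Twist2, deletes floxed genes in mesenchymal cells. No group carries the Cre without the floxed allele, so an effect of the Cre itself and the loss of Mmp14 cannot be told apart. The Hox genes were compared as a check on this body position, which is named as inguinal for both groups. Cell type markers also differed between the groups, so the Hox signals alone cannot settle it.

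Hox proteins bind DNA through their homeodomain, often together with cofactors of the TALE homeodomain class. Each cluster carries its genes in order, and the order is mirrored along the embryo's axis: genes with low paralogue numbers are used towards the head and genes with high numbers towards the tail. Adult fibroblasts and fat depots keep much of this pattern, so that Hox RNA serves as a record of where in the body a tissue lay. Hoxc8, Hoxc9 and Hoxc10 are known as genes of the trunk and hind body and as markers of subcutaneous white fat, and Hoxa9, Hoxb9 and Hoxd9 are together needed in the mouse for the mammary gland to develop in pregnancy.

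All values are log2 signals of the deposited table, which RMA had corrected for background, quantile normalized and summarised from probes to probe sets. Array medians were 3.77 to 3.89, and Pearson's r across genes, a description since genes do not count as replicates, was at least 0.990 within each group and 0.975 to 0.983 for arrays of different groups. Mmp14 had signals of 8.57, 8.55 and 8.75 in the knockout glands, against 11.18, 10.55 and 10.90 in the wild-type glands. It was lower in all 3 knockout samples, with a difference of -2.25 ± 0.17 (SE, n = 3 each), or 21.0% of the wild-type signal (adjusted p = 0.000454 by limma). A two-sided exact permutation test gave 0.1, the smallest p that 3 arrays against 3 allow. The sources used here do not say which stretch of Mmp14 its probes read.

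Apart from Hoxd3, the same Hox genes lay above a low level in both groups. That level was set at the 33rd percentile of all gene means (2.68). Of the 36 Hox genes, 25 lay above it in both groups and 10 lay under it in both groups. Hoxd3 alone was on either side of it, with a mean of 2.94 in the knockout and 2.59 in the wild type. The split followed the paralogue number. Of the 26 genes with numbers 2 to 10, the 25 other than Hoxd3 were above the low level in both groups, and all 10 genes with numbers 1, 11, 12 and 13 were below it in both. Probe sets differ in how strongly they respond, so this division describes signals and is not a ranking of RNA amounts between genes.

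**Figure D1:**
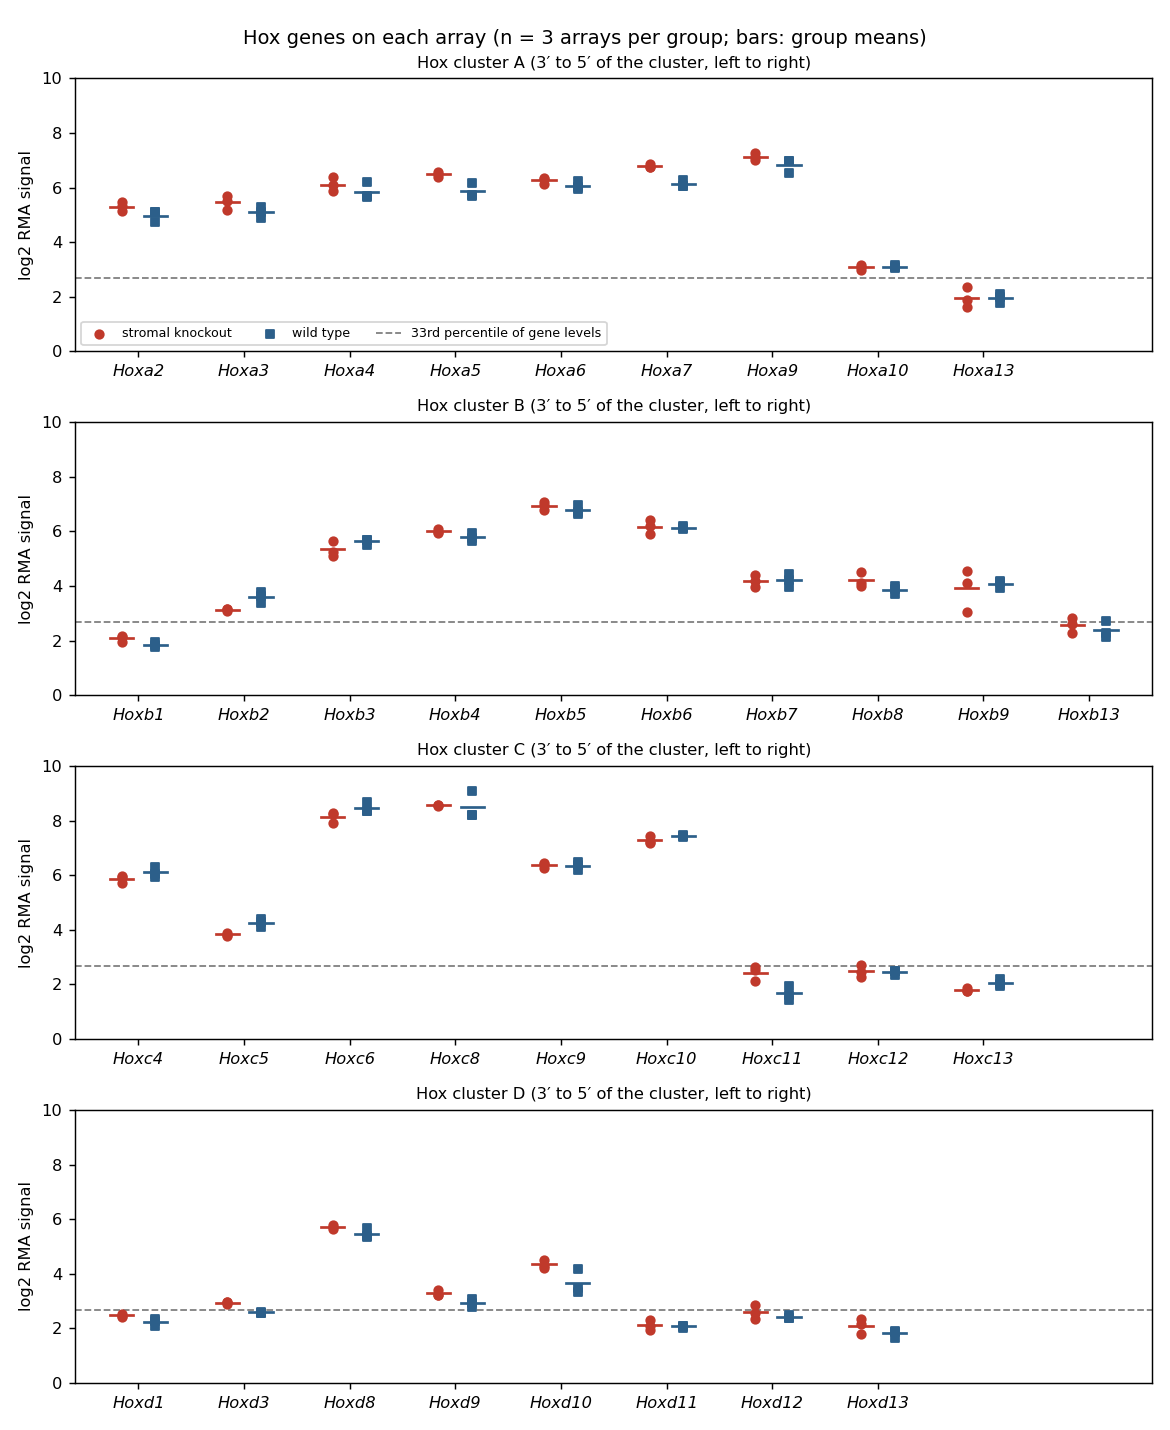
Log2 RMA signal of each of the 36 Hox genes, in a panel for each cluster with paralogue numbers growing from left to right. Red circles are the 3 stromal knockout arrays, blue squares the 3 wild-type arrays, bars the group means and the dashed line the low level of 2.68. In both groups the group means of genes with numbers 1, 11, 12 and 13 lie under the line and those of genes with numbers 2 to 10 over it, apart from Hoxd3, whose means fall on either side.

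Hoxc8, Hoxc9 and Hoxc10 did not pass the test in either direction. Hoxc8 had signals of 8.55, 8.57 and 8.59 in the knockout glands, against 8.21, 9.10 and 8.19 in the wild-type glands. Hoxc9 had 6.41, 6.28 and 6.45 in the knockout, against 6.48, 6.39 and 6.18 in the wild type. Hoxc10, known in mice to restrain thermogenic genes in subcutaneous fat, had 7.18, 7.45 and 7.22 in the knockout, against 7.49, 7.41 and 7.43 in the wild type. The groups overlapped for all 3 genes. Their differences were 0.07 for Hoxc8, with a 95% interval of -0.48 to 0.62, 0.03 for Hoxc9, with one of -0.26 to 0.32, and -0.16 for Hoxc10, with one of -0.44 to 0.12. These intervals exclude a 2-fold change in either direction (1 log2 unit), and the limma adjusted p-values were 0.887, 0.899 and 0.458. Hoxa10 was close to the low level, with signals of 3.16, 3.09 and 2.97 in the knockout and 3.07, 3.04 and 3.15 in the wild type.

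Over all 36 Hox genes the differences between groups were small. They ran from -0.45 to 0.76 log2 units, with standard errors of 0.10 to 0.34. The 95% interval excluded a 2-fold change for 34 genes (94.4%), against 85.5% of all genes tested, and the exceptions were Hoxc11 and Hoxd10. No Hox gene differed by more than 1 log2 unit. Most genes tested did not either, with 953 of 22180 past that size. Spread within groups was like that of other genes, with a median SD of 0.15 in each group for Hox genes, and of 0.16 in the knockout and 0.17 in the wild type for all genes.

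The genes that rose in the knockout were Hoxa5, Hoxa7 and Hoxc11, and none fell (limma, Benjamini-Hochberg adjusted p under 0.05 over all genes). These 3 are 8.33% of the Hox genes. Of all genes tested 5.05% were higher and 7.2% lower, 12.2% in either direction. The Hox share lay below the background for both directions together and above it for rises alone. Among genes above the low level in both groups, which leaves out Hoxc11, 2 of 25 Hox genes rose (8%). That was near the 7.21% of all such genes. At an unadjusted p under 0.05 (limma), 8 of 36 Hox genes differed, 6 higher and 2 lower. At that threshold 5876 of all 22180 genes differed, 2898 higher and 2978 lower. The arrays of the groups did not overlap for 10 Hox genes that were higher in the knockout (27.8%, against 17.2% of all genes) and for 4 that were lower (11.1%, against 15.4%). The sum of both, 14 of 36, stands beside 32.7% of all genes. Because whole glands were measured, fewer cells of a type and less RNA per cell cannot be told apart in any of these differences.

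Hoxa5 and Hoxa7, neighbours but for Hoxa6 in the middle of HoxA, were the genes above the low level that passed. Hoxa5 acts in the patterning of the trunk skeleton and lung and is expressed in mammary tissue and white fat, and Hoxa7 helps to set vertebral identity. Hoxa5 had signals of 6.57, 6.38 and 6.51 in the knockout glands, against 6.18, 5.71 and 5.72 in the wild-type glands, and the groups did not overlap. Its difference was 0.62 ± 0.16 (SE, n = 3 each), a 1.53-fold rise (limma, adjusted p = 0.0411). Hoxa7 had 6.77, 6.86 and 6.74 in the knockout, against 6.07, 6.27 and 6.07 in the wild type, so every knockout array lay above every wild-type array by more than the spread within either group. Its difference was 0.65 ± 0.12 (SE, n = 3 each), a 1.57-fold rise (limma, adjusted p = 0.0109). Hoxa6, which lies between them, had 6.32, 6.36 and 6.13 in the knockout, against 6.02, 6.24 and 5.96 in the wild type. There the groups overlapped, and the difference of 0.20 ± 0.13 did not pass (limma, adjusted p = 0.390).

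**Figure D2:**
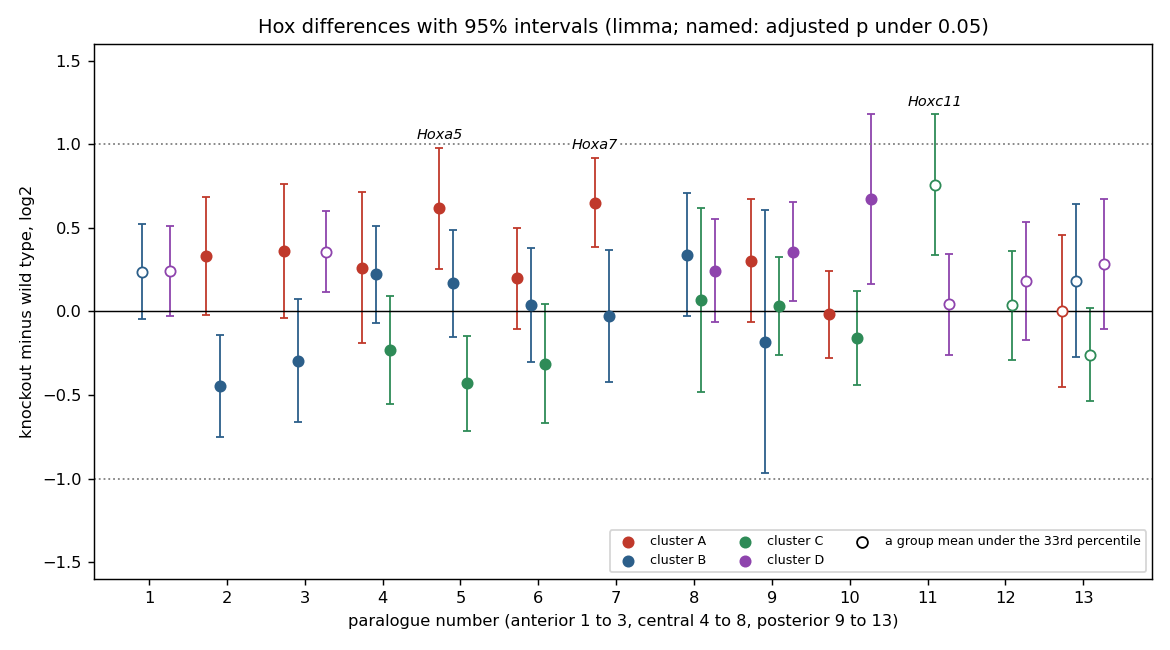
Difference of each Hox gene, knockout minus wild type in log2 units, against its paralogue number, coloured by cluster, with its 95% interval from limma. Dotted lines mark a 2-fold change, and open circles mark genes with a group mean under 2.68. Named genes passed the test, and the intervals of Hoxc11 and Hoxd10 alone reach past a dotted line.

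The calls rested on the number of arrays to different degrees. Hoxa7 passed with each of the 6 arrays left out in turn, at adjusted p-values of 0.0193 to 0.0488. Hoxa5 passed only without wild-type replicate 1 (0.0228). It did not pass without knockout replicate 1 (0.113), 2 (0.0833) or 3 (0.0927), nor without wild-type replicate 2 (0.114) or 3 (0.124). Its difference stayed between 0.53 and 0.77 in these fits, and fewer genes passed in each of them, with 2.23% to 3.95% of all genes higher.

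**Figure D3:**
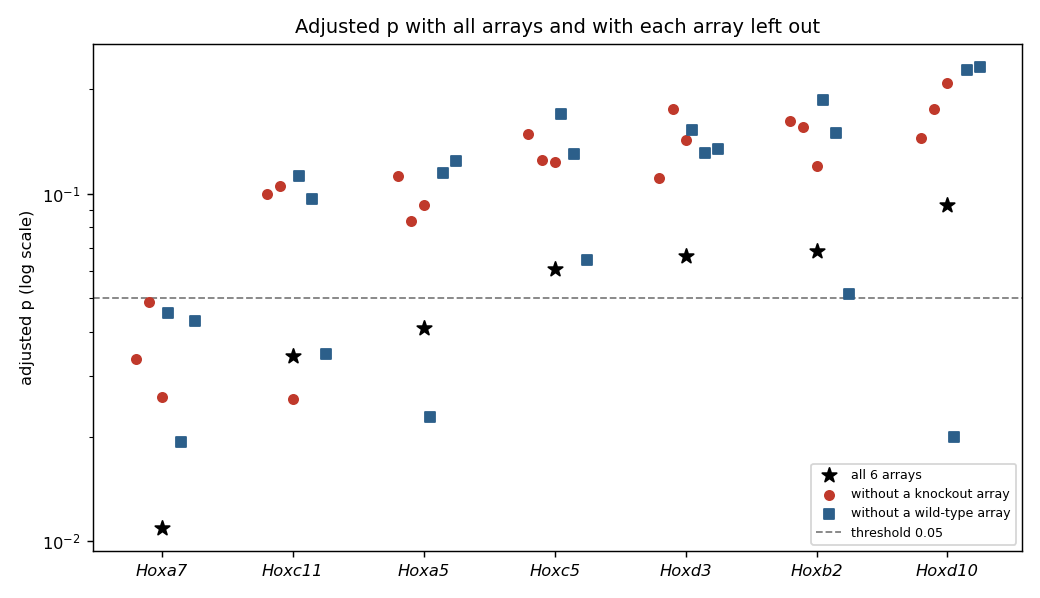
Adjusted p (limma, logarithmic axis) of the 7 Hox genes with an adjusted p under 0.1, with all 6 arrays (stars), without a knockout array (red circles) and without a wild-type array (blue squares). Hoxa7 lies under the dashed threshold of 0.05 in every case, Hoxa5 with all arrays and in 1 of 6 repeats, and Hoxd10 only without wild-type replicate 1.

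The 250 bases before the start of Hoxa7, Hoxa6 and Hoxa5 are shown because these adjacent genes include both calls of HoxA (RefSeq, GRCm38.p6). All 3 genes lie on the minus strand of chromosome 6, and each sequence reads 5′ to 3′ on that strand: Hoxa7 at chr6:52218574-52218823, Hoxa6 at chr6:52208673-52208922 and Hoxa5 at chr6:52204588-52204837. Capitals mark matches on either strand to TTTATG, a core of Cdx binding sites, and TAAT, the core bound by many homeodomains; matches that touch are joined.
Hoxa7: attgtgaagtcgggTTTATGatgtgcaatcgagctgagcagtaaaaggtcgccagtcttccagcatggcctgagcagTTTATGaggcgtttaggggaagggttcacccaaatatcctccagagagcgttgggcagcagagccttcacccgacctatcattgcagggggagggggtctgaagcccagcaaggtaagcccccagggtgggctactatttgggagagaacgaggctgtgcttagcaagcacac
Hoxa6: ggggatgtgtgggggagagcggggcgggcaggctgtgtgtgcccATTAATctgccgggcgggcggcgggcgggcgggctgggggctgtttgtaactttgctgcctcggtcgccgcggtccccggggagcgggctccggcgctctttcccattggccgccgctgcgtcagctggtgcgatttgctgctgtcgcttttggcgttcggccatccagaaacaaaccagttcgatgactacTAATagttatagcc
Hoxa5: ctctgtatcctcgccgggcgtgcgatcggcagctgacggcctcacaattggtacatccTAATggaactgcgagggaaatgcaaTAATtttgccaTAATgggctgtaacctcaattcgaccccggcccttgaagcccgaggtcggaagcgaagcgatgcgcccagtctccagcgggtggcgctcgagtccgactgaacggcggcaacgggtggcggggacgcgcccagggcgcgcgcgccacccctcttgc
Hoxa7 held TTTATG 2 times and TAAT 0 times, and Hoxa6 and Hoxa5 each held TAAT 3 times and TTTATG 0 times. TGATNNAT, a form bound by Hox with Pbx, and TGACAG, bound by Meis and Pknox factors, were searched on both strands as well and were found in none of the 3 windows. Of 32851 RefSeq windows of this length, 10.8% held TTTATG, 54.9% TAAT, 7.68% TGATNNAT and 15.9% TGACAG. The Hoxa5 and Hoxa6 windows carried 28 and 24 CpG dinucleotides and the Hoxa7 window 7, against a median of 6 over all windows. A match is a run of letters and was not tested as a site, and windows were given for 20 of the 36 Hox genes.

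The anterior genes, with paralogue numbers 1 to 3, had 0 of 7 calls, against 12.2% of all genes. Their median difference was 0.24, against 0.03 over all genes. Hoxa2, which patterns the hindbrain and second pharyngeal arch, had signals of 5.13, 5.46 and 5.32 in the knockout, against 5.10, 5.10 and 4.73 in the wild type. The groups did not overlap, by a narrow margin, and the difference of 0.33 ± 0.15 did not pass (limma, adjusted p = 0.220). Hoxd3, with roles in the neck vertebrae, had 2.89, 2.96 and 2.98 in the knockout, against 2.57, 2.57 and 2.61 in the wild type, a difference of 0.36 ± 0.10 (limma, adjusted p = 0.0661). The groups of Hoxd3 did not overlap, but all its signals were near the low level. Hoxb2, another hindbrain gene, had 3.09, 3.16 and 3.17 in the knockout, against 3.76, 3.62 and 3.37 in the wild type, a difference of -0.45 ± 0.13 (limma, adjusted p = 0.0686). Its groups did not overlap either, and it was the Hox gene with the most negative difference. Hoxa3 and Hoxb3 differed by 0.36 and -0.30 with overlapping groups. Hoxb1 and Hoxd1 were under the low level in both groups, Hoxd1 without overlap at 2.42, 2.54 and 2.45 in the knockout and 2.33, 2.09 and 2.26 in the wild type.

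The central genes, with numbers 4 to 8, had 2 of 14 calls (14.3%), those of Hoxa5 and Hoxa7, against 12.2% of all genes. All 14 lay above the low level in both groups, where 17.5% of all such genes were called. Their median difference was 0.18, which was 0.12 without knockout replicate 3. In HoxC, Hoxc4, Hoxc5 and Hoxc6 had negative differences. Hoxc5 had signals of 3.78, 3.89 and 3.82 in the knockout, against 4.41, 4.28 and 4.10 in the wild type, a difference of -0.43 ± 0.12 (limma, adjusted p = 0.0607). Hoxc6, long known as a gene of the thoracic region that is also expressed in mammary tissue, had 7.93, 8.26 and 8.27 in the knockout, against 8.70, 8.35 and 8.35 in the wild type, a difference of -0.31 ± 0.15 (limma, adjusted p = 0.249). Neither gene's groups overlapped and neither passed the test. Hoxc4 differed by -0.23 ± 0.14 with overlapping groups. Hoxb8, a trunk gene that also acts in blood cells, had 4.12, 4.00 and 4.50 in the knockout, against 3.90, 3.99 and 3.72 in the wild type, a difference of 0.34 ± 0.16 (limma, adjusted p = 0.227) with groups that just failed to overlap. The other central genes, Hoxa4, Hoxa6, Hoxb4, Hoxb5, Hoxb6, Hoxb7, Hoxc8 and Hoxd8, had overlapping groups and differences of -0.03 to 0.26. Hoxb5 was also read by a second probe set, whose difference was -0.03, against 0.17 for the one used.

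The posterior genes, with numbers 9 to 13, had a median difference of 0.04. It was 0.17 without knockout replicate 1, 0.13 without knockout replicate 3 and 0.098 without wild-type replicate 1. The class had 1 of 15 calls (6.67%), against 12.2% of all genes. That call was Hoxc11, a gene of the hind limb and lumbosacral region, with signals of 2.63, 2.51 and 2.15 in the knockout, against 1.45, 1.61 and 1.96 in the wild type. The groups did not overlap, and the difference was 0.76 ± 0.18 (SE, n = 3 each; limma, adjusted p = 0.0341), but every one of its 6 signals was under the low level. It did not pass without knockout replicate 1 (0.0999) or 2 (0.105), or without wild-type replicate 1 (0.112) or 2 (0.0965). The neighbouring Hoxc12 differed by 0.04, and Hoxc13, which acts in hair and nails, had 1.76, 1.77 and 1.88 in the knockout and 1.95, 2.03 and 2.22 in the wild type. Hoxc13 too was under the low level on all arrays, and its difference of -0.26 ± 0.12 did not pass (limma, adjusted p = 0.223).

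The paralogues of group 9, of which Hoxa9, Hoxb9 and Hoxd9 act together in the mammary gland, had differences of both signs. Hoxa9 had signals of 7.27, 7.03 and 7.11 in the knockout, against 6.98, 6.98 and 6.52 in the wild type, and the groups did not overlap. Hoxb9 had 3.06, 4.11 and 4.56 in the knockout, against 4.19, 4.16 and 3.92 in the wild type. Knockout replicate 1 was the lowest of these, and the standard error of Hoxb9, 0.34, was the largest among the Hox genes. Hoxd9 had 3.23, 3.40 and 3.22 in the knockout, against 3.07, 2.94 and 2.77 in the wild type, again without overlap. The wild-type mean of Hoxd9, 2.93, was close to the low level of 2.68. The differences were 0.30 ± 0.16 for Hoxa9, -0.18 ± 0.34 for Hoxb9, 0.03 ± 0.13 for Hoxc9 and 0.36 ± 0.13 for Hoxd9, and none passed (limma, adjusted p = 0.275, 0.785, 0.899 and 0.118). Hoxd10, a gene of the lumbar spinal cord and limb, had 4.22, 4.29 and 4.51 in the knockout, against 4.18, 3.35 and 3.48 in the wild type, a difference of 0.67 ± 0.22 (limma, adjusted p = 0.0930). Wild-type replicate 1 lay close to the knockout arrays, and without it the difference of Hoxd10 was 0.93 and passed (adjusted p = 0.0200).

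By cluster, positive differences were most frequent in HoxA and HoxD. They were found for 8 of 9 HoxA genes, 6 of 10 of HoxB, 4 of 9 of HoxC and 8 of 8 of HoxD. In all these were 26 of 36 (72.2%), against 54.4% of all genes. Only 3 of the 8 HoxD genes lay above the low level in both groups. Among genes above it in both groups, 16 of 25 Hox genes had positive differences (64%), against 50.4% of all such genes. The median difference was 0.30 in HoxA, 0.10 in HoxB, -0.16 in HoxC and 0.26 in HoxD, and 0.18 over all Hox genes. The HoxB median was 0.21 without knockout replicate 2, 0.063 without knockout replicate 3 and 0.042 without wild-type replicate 3, and the HoxC median was -0.24 without knockout replicate 2. In HoxA the genes from Hoxa2 to Hoxa9 all had positive differences, of 0.20 to 0.65. In HoxC the genes from Hoxc4 to Hoxc6 all had negative ones, of -0.43 to -0.23. These are descriptions without a test, since genes of a cluster share their arrays and lie side by side. With each array centred on its median, under which the median of all genes was 0.12, the counts were 9, 7, 4 and 8 in the same order. That scaling also turned the balance of calls over all genes, from fewer higher than lower (5.05% and 7.2%) to more higher than lower (7.97% and 6.01%). Without wild-type replicate 3 the count for HoxC was 1 of 9.

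One wild-type array stood apart in HoxA. The median deviation of the 9 HoxA genes from each gene's mean over the 6 arrays was 0.08, 0.20 and 0.18 in the knockout arrays, and -0.01, -0.04 and -0.39 in wild-type replicates 1, 2 and 3. Without wild-type replicate 3 the median difference of HoxA was 0.16, against 0.30 with all arrays. HoxD showed 0.10, 0.20 and 0.16 in the knockout arrays, and -0.05, -0.15 and -0.15 in the wild-type arrays, with no array apart from its group.

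Genes of a cluster lie close together, and array signals can mix where transcripts overlap. In the RefSeq annotation 9 of the 36 Hox genes overlap the span of another Hox gene and 17 overlap some annotated gene, Hox genes included. Strand was not considered in these overlaps, so some may be with transcripts of the opposite strand. The span of Hoxa3 covers Hoxa4, Hoxa5 and Hoxa6, and Hoxa5 also overlaps Hoxaas3, a non-coding RNA whose signals, 3.48, 3.39 and 3.47 in the knockout and 3.85, 3.30 and 3.48 in the wild type, overlapped between groups. Hoxa7 and Hoxc11 overlap none. The part of mixed transcripts in the Hoxa5 difference was not tested.

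Of 16 listed non-coding RNAs of the Hox clusters, 6 were measured and none passed the test, also at an unadjusted p under 0.05 (limma). Over all genes 12.2% passed, and 5876 of 22180 had an unadjusted p under 0.05 (limma). The list includes microRNAs that lie within the clusters. miR-196a is known in mice to cleave Hoxb8 RNA and to act on other Hox transcripts, and miR-10b lies next to Hoxd4. Their mature sequences are shown as the measured microRNAs with the nearest tie to Hox transcripts, 5′ to 3′ from RefSeq, GRCm38.p6, with the seed (bases 2 to 8) in capitals.
mmu-miR-196a-5p: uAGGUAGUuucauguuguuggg
mmu-miR-10b-5p: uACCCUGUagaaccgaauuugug
The first is made from both Mir196a-1, in HoxB at chr11:96265187-96265208 on the plus strand, and Mir196a-2, in HoxC at chr15:102973365-102973386 on the plus strand. The second comes from Mir10b, in HoxD at chr2:74726074-74726096 on the plus strand. The seeds of miR-196a and miR-10b differ. Mir196a-1 had signals of 2.60, 2.74 and 2.87 in the knockout, against 2.87, 2.97 and 3.15 in the wild type, with a difference of -0.26 ± 0.13 (limma, adjusted p = 0.256). Mir196a-2 and Mir10b were under the low level in both groups, with differences of 0.01 and 0.39. Mir615, which lies within Hoxc5, had 3.99, 3.83 and 3.73 in the knockout, against 5.06, 4.14 and 3.96 in the wild type, and the groups overlapped. The sources used here do not say whether these probe sets read the mature microRNA or its precursor. Hotair, a HoxC RNA, had 3.27, 2.56 and 2.18 in the knockout, against 1.85, 1.81 and 2.68 in the wild type, also with overlap. Both group means of Hotair and 5 of its 6 signals were under the low level.

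Of the genes that flank the clusters, 13 of 16 were measured, and 2 rose while 0 fell, against 5.05% higher and 7.2% lower over all genes. Hibadh, an enzyme of valine breakdown next to HoxA, had signals of 10.30, 10.40 and 10.41 in the knockout, against 9.67, 9.89 and 9.78 in the wild type, a difference of 0.59 ± 0.11 (limma, adjusted p = 0.0158). Mtx2, a mitochondrial outer membrane protein gene next to HoxD, had 8.66, 8.66 and 8.83 in the knockout, against 8.38, 8.22 and 8.25 in the wild type, a difference of 0.43 ± 0.12 (limma, adjusted p = 0.0499). Neither gene's groups overlapped. Hibadh did not pass without knockout replicate 2 (0.0619), wild-type replicate 1 (0.0596) or wild-type replicate 3 (0.0518), and Mtx2 did not pass without any single array (0.0836 to 0.129). Evx1 and Evx2, the homeobox genes at the ends of HoxA and HoxD, were under the low level in both groups. The other flanking genes had overlapping groups.

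The TALE homeodomain cofactors that bind DNA with Hox proteins had negative differences in 7 of the 8 measured of 9 listed, with a median of -0.30, against 0.03 over all genes. Pknox2 was the 1 of 8 that fell, against 7.2% of all genes, with signals of 4.50, 5.20 and 5.43 in the knockout, against 5.90, 5.96 and 5.90 in the wild type, a difference of -0.88 ± 0.22 (limma, adjusted p = 0.0421). The groups did not overlap, and knockout replicate 1 was the lowest array. Pknox2 did not pass without knockout replicate 2 (0.0813) or without wild-type replicate 1 (0.113), 2 (0.111) or 3 (0.105). The groups of Pbx3, Meis3 and Pknox1 did not overlap either, with differences of -0.40, -0.25 and -0.41, and did not pass (limma, adjusted p = 0.0708, 0.203 and 0.169). Pbx2 alone of the 8 had a positive difference, 0.34.

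Several other transcription factors of positional identity differed by more than any Hox gene. Of 38 listed, 34 were measured, 8 fell and 1 rose, against 7.2% lower and 5.05% higher over all genes. The median difference was -0.09. Alx4, which acts in limb and skin patterning, had signals of 2.51, 2.49 and 3.08 in the knockout, against 5.18, 4.47 and 5.31 in the wild type, a difference of -2.29 ± 0.26 (limma, adjusted p = 0.00187). Prrx2, a homeobox gene of mesenchyme, had 2.09, 2.91 and 2.74 in the knockout, against 5.29, 4.47 and 4.69 in the wild type. Its knockout mean lay under the low level, though 2 of its 3 knockout signals were above it, and its difference was -2.24 ± 0.27 (limma, adjusted p = 0.00256). Msx2, known for roles in mammary mesenchyme and epithelium, had 2.89, 2.87 and 3.50 in the knockout, against 5.14, 5.07 and 5.19 in the wild type, a difference of -2.05 ± 0.18. Irx3 had 5.49, 5.23 and 5.54 in the knockout, against 7.30, 7.11 and 7.17 in the wild type, a difference of -1.77 ± 0.13. For these 4 genes every knockout array was below every wild-type array. Irx1, Lmx1b, Irx5 and Prrx1 also fell, and Prrx1 did not pass without knockout replicate 1 (0.0544) or 2 (0.0653) or wild-type replicate 1 (0.0567). Lhx8, a homeobox gene known as a marker of brown fat, rose, with 5.89, 6.18 and 5.84 in the knockout, against 5.12, 5.24 and 4.87 in the wild type, a difference of 0.89 ± 0.15 (limma, adjusted p = 0.00893).

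Tbx15, Shox2 and Tbx5 had overlapping groups. Tbx15 and Shox2, which are high in subcutaneous fat of mice, differed by 0.08 and 0.27, and Tbx5, a forelimb and anterior trunk gene, by -0.08 (limma, adjusted p = 0.745, 0.291 and 0.790). Tbx4 and Pitx1, the hind limb genes, Cdx1, Cdx2 and Cdx4, which set Hox domains in the embryo, and Zic1, a marker of interscapular brown fat, were under the low level in both groups. Of 27 listed Polycomb and trithorax regulators, which hold Hox genes silent or active, 24 were measured and none passed the test. Over all genes 12.2% did. At an unadjusted p under 0.05 (limma), 2 were higher and 2 lower, against 2898 and 2978 of all 22180 genes. The median difference was 0.03, as over all genes.

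**Figure D4:**
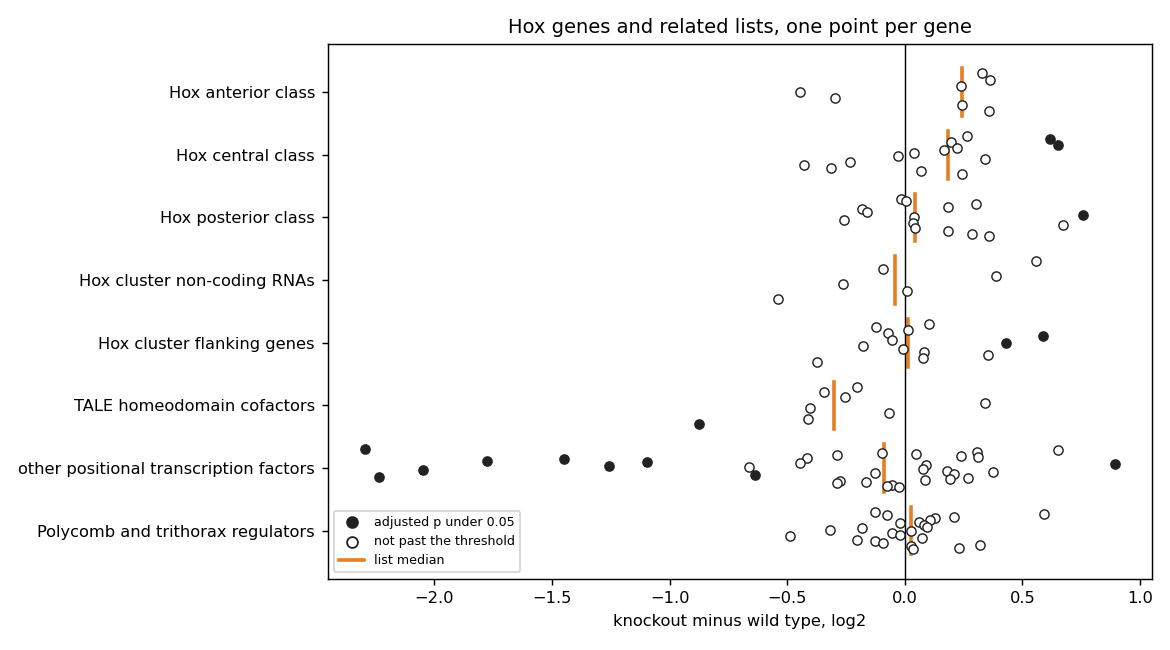
Differences of single genes, knockout minus wild type in log2 units, for the Hox genes by class and for the other lists, 1 point per gene and filled where limma's adjusted p was under 0.05. Orange bars are list medians. Hox genes spread over -0.45 to 0.76, while Alx4, Prrx2 and Msx2 among the other positional factors lie at -2.29, -2.24 and -2.05.

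The make-up of the glands by cell type markers differed between the groups along with these values. Over all genes 7.2% fell and 5.05% rose. All 16 luminal epithelium markers fell, with a mean signal per array of 5.07 to 5.28 in the knockout and 7.26 to 7.42 in the wild type, and 8 of 11 basal markers fell. Of 14 fibroblast markers 8 fell, with array means of 9.51 to 9.66 in the knockout and 10.14 to 10.42 in the wild type. White adipocyte markers rose in 3 of 11 cases (array means 10.84 to 10.97 in the knockout and 10.49 to 10.54 in the wild type) and thermogenic adipocyte markers in 6 of 12 (7.37 to 7.85 in the knockout and 5.60 to 6.85 in the wild type). Krt8 differed by -3.08, Pdgfra by -1.03 and Adgre1, of macrophages, by -0.92, all past the threshold, and Krt14 by -3.15, with its knockout mean under the low level. Adipoq, Ucp1, Pecam1 and Cd3e differed by 0.29, 3.04, 0.33 and -0.07 and did not pass. Of 16 skeletal muscle markers 1 rose and 0 fell, while 13 had negative differences. These markers averaged 3.21 to 3.35 per array in the knockout and 3.12 to 5.48 in the wild type. The last was wild-type replicate 1, in which Acta1 was 8.67. Of 10 lymphocyte markers 2 fell, of 10 macrophage markers 6 fell and of 12 endothelial markers 3 rose, while 0 of 8 epidermal markers passed and 1 of 7 nerve markers rose and 1 fell. No defining marker measured other than Krt14 had a group mean under the low level. The part of these shifts in the Hox differences was not tested.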

How the data were processed

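Total RNA (400 ng per sample) from whole inguinal mammary glands was hybridised to 1 Affymetrix array per sample, per the labels' protocols. The deposited log2 values were made by the authors with RMA, and limma was also used, per the submitters' processing notes, which give no versions. The log base of 2 was taken from the use of RMA and the range of values. The sources used here name neither the chip definition nor a genome build. Each of the 6 columns was tied to its sample through the labels. Nothing beyond the phrase biological replicate says how samples were kept apart, so p-values measure the spread between these samples.

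The table holds 41345 probe sets, of which 23521 carry 1 gene symbol in the platform annotation, 1814 carry several and 16010 are unnamed here. Where several probe sets carried a symbol, that of highest mean signal over all arrays stood for it, which left 22180 genes. Entrez identifiers in a RefSeq table of GRCm38.p6 altered 0 symbols. The groups were compared with limma 3.58.1 (lmFit, eBayes) under R 4.3.3, with Benjamini-Hochberg adjustment over all genes and a threshold of 0.05. Differences are knockout minus wild type, standard errors are moderated, and folds are the larger over the smaller signal. The steps were tested on simulated data. The number of arrays limits the precision.

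The Hox genes and the other lists, of whose 282 entries 248 matched a measured gene, were chosen with earlier results of these data known. The text names Mmp14, each Hox gene past the threshold or without overlap between groups, Hox genes in counts of 5 or fewer, up to 4 genes past the threshold per other list, and defining cell type markers. The other genes named were chosen after their values were seen, among them Hoxc8, Hoxc9 and Hoxc10, the remaining members of the non-coding, flanking and TALE lists, and Tbx5, Tbx15 and Shox2. Promoter and microRNA sequences are RefSeq's, read with Python 3.11.15. Same-numbered replicates did not deviate together (correlations of -0.05 to -0.03 across genes), so the numbers were not taken as pairs. Alternatives altered the genes tested (without the 33 percent lowest, or with each probe set or the mean per symbol), the fit (plain or robust intensity trend, array weights, replicate number as block), the scaling (quantile normalization once more, or median centring), the call (adjusted p under 0.1, or a 2-fold change) and the arrays (each left out in turn).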

Additional observations from a re-analysis of the deposited data

How the results depend on the processing

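The count of Hox genes past the threshold was 3, all higher in the knockout, under the intensity trends, array weights, repeated quantile normalization, the mean of probe sets and every probe set tested. Without the lowest 33 percent of genes, 26 Hox genes were tested and 5 passed: Hoxa5, Hoxa7 and Hoxd3 higher, and Hoxb2 and Hoxc5 lower, so 2 were lower. An adjusted p under 0.1 gave 7, with 5 higher and 2 lower, and a 2-fold change as a further condition gave 0 Hox genes past the threshold, 0 of them higher, and 7 genes in place of 12 over the non-coding, flanking, TALE, positional and Polycomb lists together. Leaving out single arrays gave 1 to 3 Hox genes past the threshold, 1 to 3 of them higher and 0 lower.

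With the replicate number as a block, 1 Hox gene passed and was higher, Hoxa7. Hoxa5 and Hoxc11 then had limma adjusted p-values of 0.0537 and 0.0861. Their differences were 0.62 and 0.76, as without the block. The numbers share no known pairing, as described under processing.

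Medians moved as follows. The filter gave 0.33 for the anterior class, 0.0058 for HoxB and 0.36 for HoxD. Array weights gave 0.096 for the posterior class and 0.056 for HoxB, and the mean of probe sets gave 0.054 for HoxB. Centring on array medians gave 0.27 for all Hox genes, 0.33 and 0.13 for the anterior and posterior classes, and 0.19, -0.071 and 0.35 for HoxB, HoxC and HoxD. It also brought Hoxd3 past the threshold (adjusted p = 0.0304) and took Pknox2 out (0.0543). Leaving out single arrays gave 0.12 to 0.21 for the central class, 0.050 to 0.17 for the posterior class, 0.16 to 0.38 for HoxA, 0.042 to 0.21 for HoxB, -0.24 to -0.11 for HoxC and 0.25 to 0.34 for HoxD. No direction of a called value reversed under any alternative run. Mtx2 did not pass with repeated quantile normalization (0.0641), the mean of probe sets (0.0505) or every probe set tested (0.0539).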
